A study of Homo sapiens with 13 samples.

Results

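The comparison described here set 2 compounds against each other in the same cells: osteoblasts given the compound that the labels code as DEG, against osteoblasts given resveratrol (RES). It used the raw read counts of 2 DEG and 3 RES libraries, 5 of the 12 libraries with a column in the deposited table, out of 13 labelled samples. DEG replicate 3 was not analysed here. All samples were hFOB 1.19, an immortalized human fetal osteoblast line that is a single cell line and not primary bone. Cells of both groups had been starved of serum and stayed without it, and each compound was given at 1 µg/mL, equal by mass rather than by number of molecules. The exposure time was not given in the sources used here. The treatment description names the anthocyanins delphinidin-3-glucoside and peonidin-3-glucoside beside resveratrol, but no label ties the code DEG to a compound in words, so the code is kept. The other groups were 2 negative control libraries (no serum, no compound), 3 libraries of POG and 2 positive control libraries with 10% serum. The study defines POG as peonidin-3-glucoside. By its methods, both kinds of control received the vehicle solvent, DMSO. Negative control and POG levels are given beside some genes as reference. The labels did not say whether libraries of a group came from separate cultures. P-values therefore measure only the spread between libraries within groups, pooled over all 12 libraries, and that spread may be technical.

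Resveratrol is a stilbene polyphenol of grapes, and anthocyanins are plant pigments. Osteoblasts lay down collagen-rich bone matrix and steer osteoclasts, the cells that resorb bone, through secreted cytokines. A pair of stress programmes that recur below work through defined DNA elements. Type I interferons act through the kinases JAK1 and TYK2 on a complex of STAT proteins and IRF9, which binds the interferon-stimulated response element and switches on antiviral genes. NRF2 (gene NFE2L2) is held down by KEAP1 until electrophiles or oxidants release it, and it then binds the antioxidant response element of genes for glutathione, thioredoxin, NADPH and iron storage.

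DEG libraries held 38464619 and 39036437 counted reads and RES libraries 43968661 to 44181343. A read was seen for 21647 to 21730 genes in DEG and 22177 to 22926 in RES, where RES replicate 2 had the most. Reads from mitochondrial genes made up 3.03% and 3.11% in DEG and 3.24% to 3.40% in RES. Per gene, the squared difference between libraries of a group was 2.08 times the sampling noise in DEG and 2.43 to 2.74 times in RES, so no pair of libraries agreed within counting error. Of 10 osteoblast markers, 8 passed 1 CPM (a gene's reads on a per-million scale of the TMM-scaled library total), and SP7 and IBSP, a late osteoblast factor and a late bone matrix protein, stayed under 0.1 CPM. Summed osteoblast marker CPM was 4812 and 4821 in DEG and 4946 to 5073 in RES, beside 5317 and 5372 in the negative control.

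Levels below are CPM with TMM-scaled totals. Differences are log2 fold changes, positive when DEG is higher, with edgeR exact test FDRs over the 17092 genes tested. A gene that did not pass is not thereby shown to be equal between the groups, and in bulk RNA fewer cells of a type and less RNA per cell cannot be told apart. At an FDR under 0.05, 3616 genes differed between DEG and RES, which is 21.2% of those tested. DEG was higher in 1764 (10.3%) and lower in 1852 (10.8%). Without DEG replicate 1 the calls numbered 2092 and without DEG replicate 2 they numbered 2232, so list counts that fell by more than 1.5 times with a single library left out are given below as well. The differences were small: the median size among called genes was 0.22 on the log2 scale, 57.2% were under 0.25 and 84.4% under 0.5. The 2 DEG libraries lay entirely above or below the 3 RES libraries for 3595 of the called genes, against 8273 of all genes tested (48.4%). Requiring a log2 difference of at least 1 as well left 28 genes higher and 148 lower. A stricter core of 1421 genes (638 higher, 783 lower) was also called by edgeR's quasi-likelihood test, by DESeq2 and with each of the 5 libraries left out in turn.

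**Figure D1:**
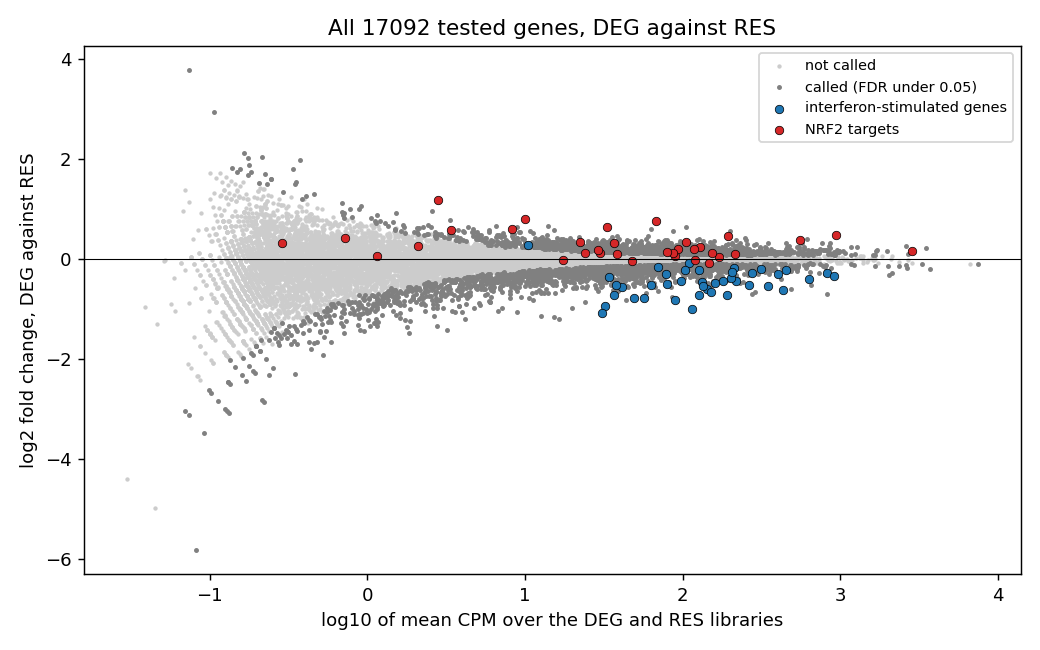
Each point is 1 of the 17092 tested genes, with the log10 of its mean CPM over the DEG and RES libraries on the x axis and the log2 fold change of DEG against RES on the y axis. Interferon-stimulated genes (blue) lie below 0 except for 1, and NRF2 targets (red) lie mostly above it.

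The scatter of log2 fold change against level shows that most strongly expressed genes moved by little, while members of certain pathways stood off the centre line. Of 42 gene lists examined, interferon-stimulated genes had the lowest median (-0.45) and NRF2 targets the highest (0.20), beside a median of -0.0047 over all genes tested. Lists with at least 50% of their tested members called in a single direction were few. They were interferon-stimulated genes, cytokines and chemokines, osteoblast signals to osteoclasts and mitochondrially encoded genes on the lower side, and NRF2 targets, aryl hydrocarbon receptor genes, mitotic genes and cytosolic ribosomal proteins on the higher side. Interferon-stimulated genes and cytokines and chemokines kept that share with any 1 library left out, and the other 6 lists fell under it without DEG replicate 1 or DEG replicate 2. Ribosomal proteins fell under it also without RES replicate 2 or RES replicate 3, and osteoblast signals to osteoclasts without RES replicate 1. Counts for each follow, to be read against the 10.3% higher and 10.8% lower of all genes.

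**Figure D2:**
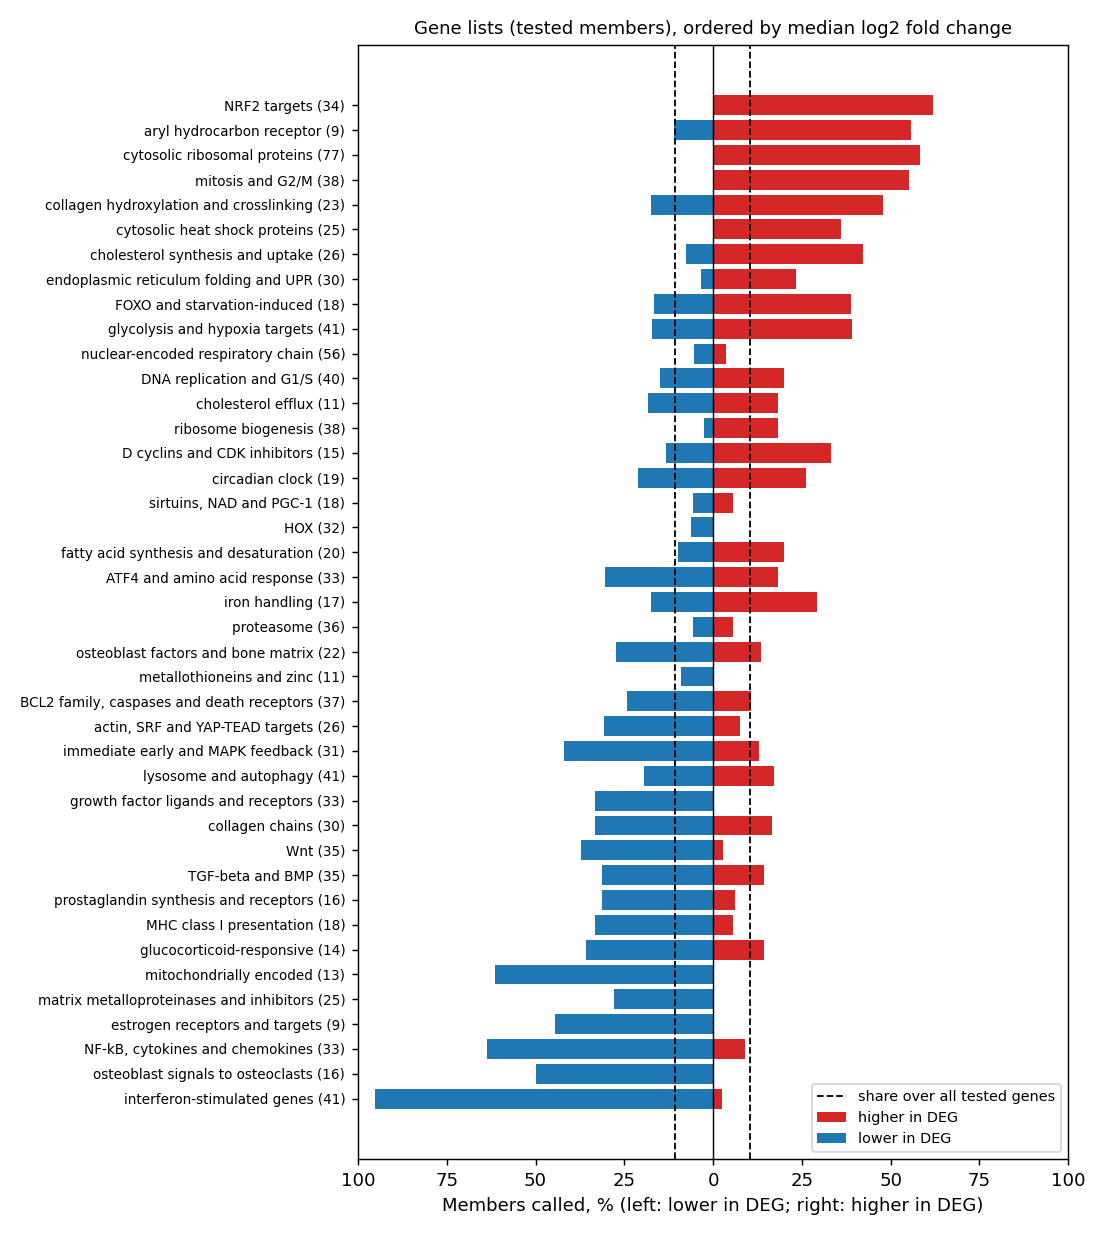
Bars give the percentage of tested members of 41 gene lists called lower (left, blue) or higher (right, red) in DEG than in RES, with the number tested in brackets and dashed lines at 10.8% and 10.3%, the shares over all tested genes. Lists run from the highest median log2 fold change at the top to the lowest at the bottom.

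Interferon-stimulated genes were lower in DEG as a block. Of 41 members tested, 39 were lower, 1 was higher and 1 did not pass, and 38 of the 39 falls belonged to the stricter core. The falls ran from -0.17 for IRF1, an interferon-induced transcription factor whose call was lost without DEG replicate 2 (FDR 0.227), to -1.08 for RSAD2, which encodes viperin, an enzyme that makes a chain-terminating nucleotide against viruses. The single member higher in DEG was IRF9, the DNA-binding partner of STAT2 (0.28, FDR 0.0223), a call lost when RES replicate 3 (FDR 0.189) or either DEG library was left out. IFITM2, a membrane protein that restricts virus entry, was the member that did not pass (-0.072, FDR 0.291).

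The interferon-stimulated response element is shown in 4 promoters of genes that fell, from 250 bases before to 50 after the RefSeq start (GRCh38.p14), in the direction of the gene. Capitals mark GAAANNGAA on either strand, where N is any base. They are ISG15 (chr1:1013247-1013546, plus strand), IFIT1 (chr10:89392373-89392672, plus strand), RSAD2 (chr2:6865635-6865934, plus strand) and BST2 (chr19:17405581-17405880, minus strand).
ISG15: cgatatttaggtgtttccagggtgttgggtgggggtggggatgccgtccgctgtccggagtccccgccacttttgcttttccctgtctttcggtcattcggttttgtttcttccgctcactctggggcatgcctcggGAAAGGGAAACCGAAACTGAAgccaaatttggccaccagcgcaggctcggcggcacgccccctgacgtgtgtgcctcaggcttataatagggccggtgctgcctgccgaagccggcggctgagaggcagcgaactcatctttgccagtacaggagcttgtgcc
IFIT1: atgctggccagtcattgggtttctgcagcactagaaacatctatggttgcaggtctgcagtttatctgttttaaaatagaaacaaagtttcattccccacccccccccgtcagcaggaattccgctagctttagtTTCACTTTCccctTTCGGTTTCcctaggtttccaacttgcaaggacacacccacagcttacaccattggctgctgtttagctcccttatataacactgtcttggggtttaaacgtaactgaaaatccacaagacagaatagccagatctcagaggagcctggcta
RSAD2: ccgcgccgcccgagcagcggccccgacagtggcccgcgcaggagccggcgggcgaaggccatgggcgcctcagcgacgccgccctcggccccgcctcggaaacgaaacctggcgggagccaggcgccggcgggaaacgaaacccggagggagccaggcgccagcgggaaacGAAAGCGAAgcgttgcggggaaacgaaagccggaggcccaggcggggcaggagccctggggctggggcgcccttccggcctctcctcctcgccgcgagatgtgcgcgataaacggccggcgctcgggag
BST2: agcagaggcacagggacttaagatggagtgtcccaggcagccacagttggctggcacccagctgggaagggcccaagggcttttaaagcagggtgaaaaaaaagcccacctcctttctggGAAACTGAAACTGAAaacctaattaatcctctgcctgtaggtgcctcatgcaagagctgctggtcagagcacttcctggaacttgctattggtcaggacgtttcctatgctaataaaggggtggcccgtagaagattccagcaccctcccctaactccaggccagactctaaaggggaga
In ISG15 the 3 overlapping matches began 113, 107 and 101 bases before the start, in BST2 the 2 overlapping matches began 130 and 124 bases before it, and in IFIT1 the 2 matches, both on the other strand, began 115 and 102 bases before it. RSAD2 held 1 match, 79 bases before its start. Of 32 list members with a promoter in the table, all of them called, 20 (62.5%) held the letters, against 6.56% of the 11709 tested genes with a promoter. The match is a description of the letters and not of binding.

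IFIT2 (ENSG00000119922.9, hg38 chromosome 10, 89283694 to 89309271), which binds foreign RNA and blocks its translation, stood at 148, 153 and 155 CPM in the 3 RES libraries and 76.0 and 77.7 in the 2 DEG libraries. The groups were far apart and no DEG library came near the RES range (log2 fold change -0.99, SE 0.0396, FDR 1.49e-118). Its neighbours moved the same way: IFIT3 went from 234, 233 and 242 CPM in RES to 145 and 142 in DEG (-0.72) and IFIT1 from 116, 113 and 117 to 63.8 and 66.3 (-0.82). LIPA, a lysosomal lipase that lies on the opposite strand across all 3 genes, was also lower (-0.45, FDR 2.60e-12). The strand setting of the counting was not stated, so reads of LIPA and of the IFIT genes cannot be fully told apart. RSAD2 (ENSG00000134321.11, chromosome 2, 6865557 to 6898239) stood at 42.1, 42.0 and 41.4 CPM in RES and 18.9 and 20.6 in DEG, and its overlapping neighbour CMPK2, a mitochondrial nucleotide kinase, at 43.0, 41.5 and 41.3 and 21.4 and 22.7. The RSAD2 and CMPK2 differences, -1.08 and -0.93, carry the same doubt about shared reads. It also holds for other genes named below that have an annotated partner on the other strand. Among them are IL6, NQO1, TFRC, TIMP3, LRRC17, DOCK2, SCN3A, PRUNE2, SLC7A11, FGF2, FZD4, CCNA2, PIR and INHBA.

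Effectors outside these loci showed the same order. MX1, a GTPase that traps viral nucleocapsids, was at 522, 525 and 523 CPM in RES and 339 and 342 in DEG (-0.62, SE 0.0285, FDR 4.79e-73), and MX2 differed by -0.78. The oligoadenylate synthetases, which sense double-stranded RNA and activate RNase L, were all lower: OAS1 by -0.59, OAS2 by -0.66 and OAS3 by -0.39. ISG15, a ubiquitin-like modifier, was at 406, 408 and 418 CPM in RES and 279 and 286 in DEG (-0.54), and HERC5, its ligase, and USP18, its protease, differed by -0.37 and -0.51. The RNA sensors RIGI (-0.45) and IFIH1 (-0.43) were lower too. Among the signal carriers, STAT2 (-0.27) and IRF7 (-0.22) fell by less than the effectors named above.

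**Figure D3:**
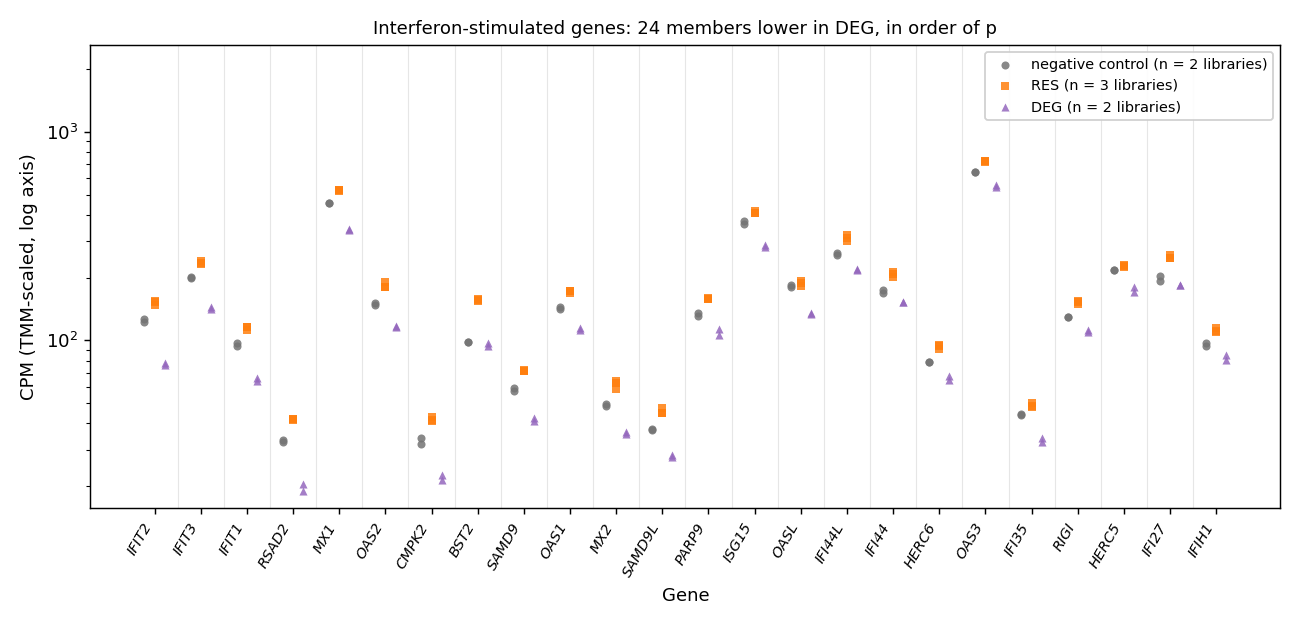
Points are single libraries of the negative control (grey circles), RES (orange squares) and DEG (purple triangles), with CPM on a log axis, for 24 interferon-stimulated genes lower in DEG than in RES, in order of p. DEG lies under RES for each gene, and the negative control lies between them for most, though for BST2 it lies close to DEG.

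The negative control places the difference. Against it DEG was lower in 34 of the 41 members, while 6.11% of all genes were lower and 3.52% higher, and none of the 41 was higher. RES against the same control was higher in 29 and lower in 1, while 4.94% of all genes were higher and 6.21% lower. These comparisons share their libraries with each other and with DEG against RES, so they are no independent support. IFIT2 stood at 126 and 122 CPM in the control, between the groups, with differences from it of -0.69 in DEG and 0.30 in RES. For MX1, at 454 and 456 CPM in the control, they were -0.42 and 0.20. BST2, a membrane tether of budding virus, differed from the control mainly in RES. It stood at 98.8 and 98.0 CPM in the control, 156, 154 and 159 in RES and 96.9 and 94.0 in DEG. DEG lay just below the control and did not pass against it (FDR 0.703), and RES was above both. OASL, a relative of the synthetases without their activity, was the reverse case, with 0.040 in RES (FDR 0.561) and -0.44 in DEG (FDR 8.17e-25). In POG the median of the list against RES was -0.37.

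Upstream genes were looked at after their values had been seen. IFNB1, the gene of interferon beta, was at 0.0897, 0.380 and 0.135 CPM in RES and 0.0517 and 0.0509 in DEG and did not pass (SE 0.834, FDR 0.0985), at a level of few reads per library. It passed without RES replicate 1 (FDR 0.0226) and without RES replicate 3, fits that both kept RES replicate 2, the library at 0.380 CPM. Over 10 alternative settings the IFNB1 log2 fold change ran from -2.26 to -1.09. The receptor chains IFNAR1 (-0.084, FDR 0.168) and IFNAR2 (0.025, FDR 0.848) did not pass either. STING1, the adaptor that relays cytosolic DNA sensing, was lower in DEG (-0.33, FDR 1.86e-11). Antigen presentation genes, many of them interferon-inducible, moved far less. Of 18 tested, 6 were lower and 1 higher, with a median of -0.074 (4 called without DEG replicate 2). NLRC5, the transactivator of class I genes, had the largest of these falls, from 96.8, 98.0 and 97.5 CPM in RES to 75.3 and 77.2 in DEG (-0.35, FDR 1.22e-15). The shared light chain B2M (-0.15), the immunoproteasome subunit PSMB9 (-0.19) and the trimming peptidase ERAP2 (-0.31) were lower. HLA-B (-0.072) and HLA-C (-0.077) did not pass in the main test, though both passed under some alternative setting.

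Cytokine and chemokine genes were also lower in DEG. Of 33 tested members of the NF-kB, cytokine and chemokine list, 21 were lower, 3 higher and 9 did not pass, with a median of -0.20. IL6 (ENSG00000136244.11, hg38 chromosome 7, 22725884 to 22732002), an inflammatory cytokine that also drives osteoclast formation, stood at 1023, 1012 and 1019 CPM in the RES libraries and 621 and 628 in the DEG libraries, with no overlap (-0.71, SE 0.0280, FDR 3.88e-89). CSF3, the granulocyte colony factor, went from 336, 340.1 and 339 to 206 and 212 CPM (-0.69, FDR 7.42e-81). The neutrophil chemokines CXCL1 (596, 577 and 586 CPM in RES and 386 and 392 in DEG, -0.59) and CXCL3 (-0.65) followed, with smaller falls for CXCL8 (-0.26), CXCL6 (-0.29), CXCL5 (-0.28) and CXCL2 (-0.14), the last a call lost without RES replicate 1 or DEG replicate 1 (FDR up to 0.211). IL1B (-0.19) and the receptor IL1R1 (-0.38) were lower, while IL1A (0.22, FDR 0.0581) and LIF (-0.039, FDR 0.456) did not pass.

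Some of these cytokines stood near the control level in RES, others did not. In the negative control IL6 was at 973 and 996 CPM, so RES differed from it by 0.048 (FDR 0.422) and DEG by -0.66 (FDR 1.73e-65). CSF3 was at 318 and 329.7 CPM in the control, with 0.062 in RES and -0.63 in DEG. Of the 33 members, DEG was lower than the control in 18 and higher in 6, and RES was lower in 7 and higher in 7, while 6.11% and 3.52% of all genes were lower and higher in DEG and 6.21% and 4.94% in RES. Within the pathway itself the directions were mixed. The inhibitors TNFAIP3 (-0.24) and NFKBIA (-0.11) and the subunit NFKB1 (-0.15) were lower in DEG, the subunits RELA (0.14) and RELB (0.17) were higher, and NFKB2 (0.054) and REL (0.072) did not pass. The NFKBIA call was lost without RES replicate 1, RES replicate 3 or either DEG library (FDR up to 0.151). CCL7, a monocyte chemokine, was the third member higher in DEG, at 3.48, 3.75 and 2.85 CPM in RES, 5.45 and 5.11 in DEG and 6.35 and 6.51 in the control (0.65, FDR 1.66e-05).

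**Figure D4:**
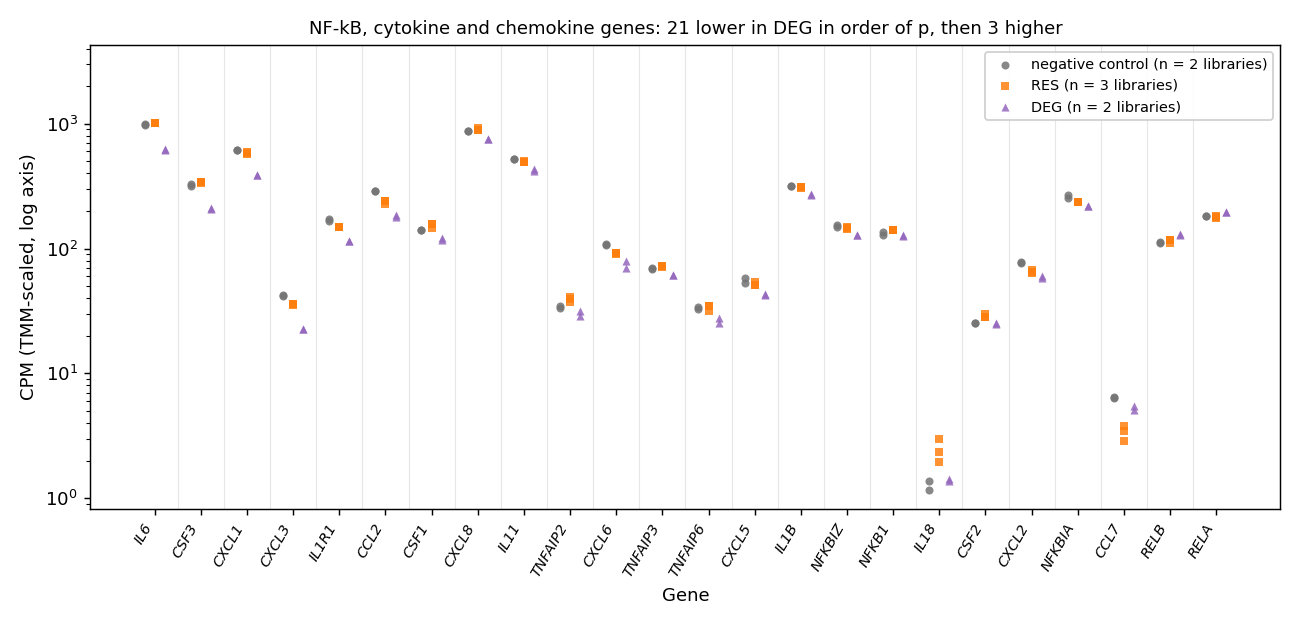
Points are single libraries of the negative control (grey circles), RES (orange squares) and DEG (purple triangles), with CPM on a log axis, for the 24 called members of the NF-kB, cytokine and chemokine list, the 21 lower in DEG first. For IL6, CSF3 and CXCL1 the RES libraries lie at or beside the control and the DEG libraries below both.

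Signals from osteoblasts to osteoclasts included several of these cytokines. Of 16 tested, 8 were lower in DEG and none was higher, with a median of -0.29. CSF1, the survival factor of osteoclast precursors, was at 147, 157 and 156 CPM in RES and 122 and 117 in DEG (-0.36, FDR 2.42e-18), and the precursor attractant CCL2 at 239.7, 241 and 229 and 178 and 185 (-0.38). TNFRSF11B, the gene of the decoy receptor osteoprotegerin, which holds osteoclasts back, was lower as well, at 35.4, 34.8 and 33.6 CPM in RES and 27.0 and 28.9 in DEG (-0.31, FDR 3.85e-07). So was SEMA3A, another signal that restrains osteoclasts (-0.37, FDR 7.35e-10), and members that promote and members that restrain resorption were therefore lower together. TNFSF11, the gene of RANKL, was at 0.337, 0.313 and 0.583 CPM in RES and 0.388 and 0.280 in DEG and did not pass (-0.30, SE 0.501, FDR 0.778).

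Prostaglandin genes held 1 of the steepest falls among genes over 10 CPM. PTGES (ENSG00000148344.10, hg38 chromosome 9, 129738331 to 129753042), the inducible synthase that makes prostaglandin E, stood at 21.9, 20.5 and 21.1 CPM in RES and 9.07 and 9.80 in DEG (-1.17, SE 0.0704, FDR 1.30e-53). The control stood at 12.4 and 11.8 CPM, so DEG was below it (-0.36, FDR 0.00106) and RES above it (0.81, FDR 1.45e-28). The receptors PTGER4 (-0.46), PTGER2 (-0.27) and PTGIR (-0.34) were lower too, whereas the cyclooxygenases PTGS1 (0.040, FDR 0.819) and PTGS2 (0.049, FDR 0.489) did not pass. PTGES3, the cytosolic synthase that is also the HSP90 cochaperone p23, was higher (0.22). The PTGER2 call was lost with DESeq2 and without RES replicate 2 or either DEG library (FDR up to 0.184). In all, 5 of 16 tested members were lower and 1 was higher.

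NRF2 targets moved the other way. Of 34 tested, 21 were higher in DEG, none was lower and 13 did not pass, with a median of 0.20, and 15 of the 21 belonged to the stricter core. NQO1 (ENSG00000181019.12, hg38 chromosome 16, 69706996 to 69726668), a quinone reductase, stood at 49.9, 49.9 and 50.0 CPM in RES and 85.4 and 84.8 in DEG, with a wide gap between the groups (0.77, SE 0.0391, FDR 7.99e-72). TXNRD1, which reduces thioredoxin, stood at 164, 158 and 167 and 223 and 229 CPM (0.47, FDR 4.26e-37). SLC7A11, the cystine importer that feeds glutathione synthesis, stood at 25.1, 27.5 and 24.7 and 39.8 and 40.8 CPM (0.64, FDR 1.27e-17).

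Promoter windows of 3 of these genes that hold the antioxidant response element letters are given in the same form, with capitals on TGACNNNGC on either strand: TXNRD1 (chr12:104215529-104215828, plus strand), GCLM (chr1:93909381-93909680, minus strand) and PIR (chrX:15493284-15493583, minus strand).
TXNRD1: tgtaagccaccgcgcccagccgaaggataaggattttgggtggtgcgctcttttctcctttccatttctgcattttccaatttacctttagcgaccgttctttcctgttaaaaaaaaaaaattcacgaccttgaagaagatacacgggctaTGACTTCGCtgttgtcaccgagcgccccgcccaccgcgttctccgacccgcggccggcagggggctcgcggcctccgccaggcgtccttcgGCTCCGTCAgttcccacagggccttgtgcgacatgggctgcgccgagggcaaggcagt
GCLM: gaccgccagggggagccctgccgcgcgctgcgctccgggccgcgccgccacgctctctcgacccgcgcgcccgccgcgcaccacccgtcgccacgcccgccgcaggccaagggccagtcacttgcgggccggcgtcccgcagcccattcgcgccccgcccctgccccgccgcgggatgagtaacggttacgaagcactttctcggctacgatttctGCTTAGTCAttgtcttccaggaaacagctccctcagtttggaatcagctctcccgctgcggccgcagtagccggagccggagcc
PIR: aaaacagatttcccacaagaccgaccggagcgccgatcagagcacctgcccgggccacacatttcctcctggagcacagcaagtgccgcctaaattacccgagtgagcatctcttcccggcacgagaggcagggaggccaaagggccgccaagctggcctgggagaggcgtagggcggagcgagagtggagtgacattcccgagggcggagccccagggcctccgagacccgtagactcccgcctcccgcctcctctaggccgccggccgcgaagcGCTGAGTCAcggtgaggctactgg
The 2 matches of TXNRD1 began 99 and 8 bases before its start and overlapped no match of the interferon pattern. In GCLM the match began 34 bases before the start and in PIR 26 bases after it. This pattern is common: it was found in 6 of 24 list members with a promoter (25.0%) and in 14.8% of the 11709 tested genes with one. Of the 14 called members with a promoter, 3 held it.

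The higher members covered most arms of the programme. Glutathione genes included GCLM, the modifier subunit of the limiting ligase (32.5, 32.0 and 34.0 CPM in RES and 41.4 and 40.7 in DEG, 0.32), and the reductase GSR (0.20), while the catalytic subunit GCLC was at -0.0078 and did not pass (FDR 0.981). NADPH supply included TKT (478, 478 and 479 CPM in RES and 626 and 629.7 in DEG, 0.39) and TALDO1 (0.21), both of the pentose phosphate pathway, but PGD of the same pathway did not pass (0.042, FDR 0.456). Haem and iron genes included HMOX1, which breaks haem down (0.35), and the ferritin chains FTL (779.6, 795 and 762 CPM in RES and 1092 and 1094 in DEG, 0.49) and FTH1 (0.16). NFE2L2 itself was at 91.8, 91.4 and 92.2 CPM in RES and 118 and 116 in DEG (0.35, FDR 1.67e-18), and KEAP1 did not pass (0.062, FDR 0.343). PIR, an iron-binding nuclear protein, and NMRAL2P, a transcribed pseudogene, were among the rises named by the rule for genes of at least 1 CPM, at 0.79 and 1.19. NMRAL2P stood at 1.41, 1.36 and 2.36 CPM in RES and 3.64 and 4.15 in DEG, and reads of a pseudogene may belong in part to its relative.

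**Figure D5:**
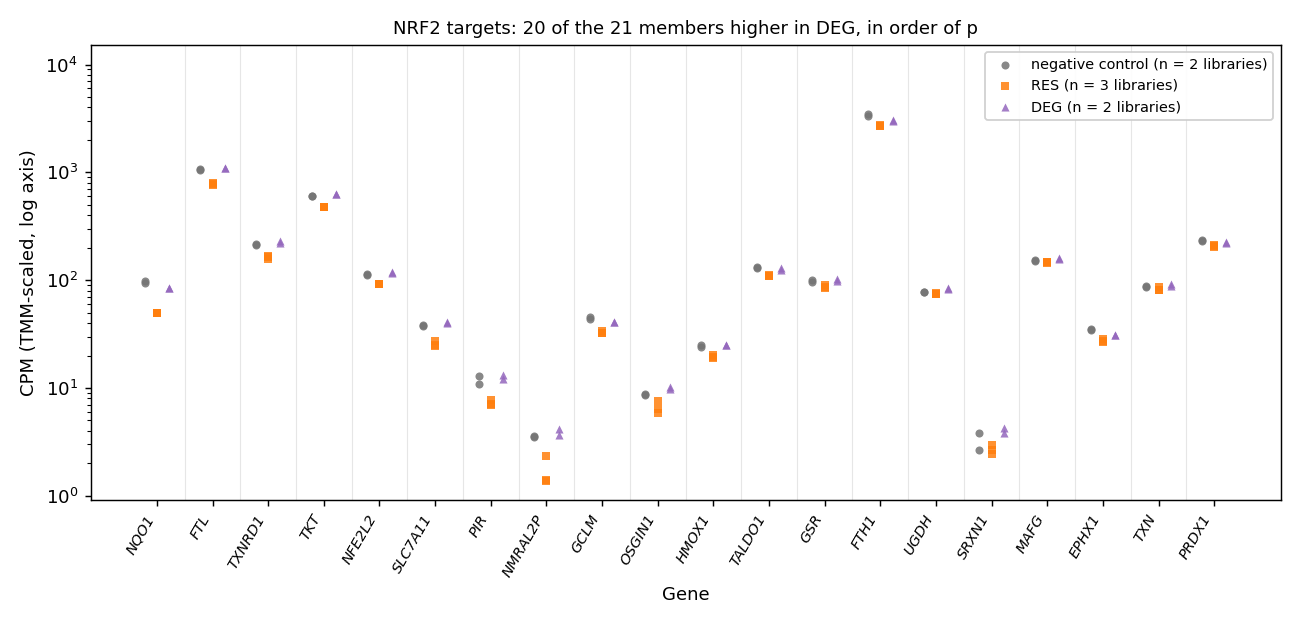
Points are single libraries of the negative control (grey circles), RES (orange squares) and DEG (purple triangles), with CPM on a log axis, for 20 of the 21 NRF2 targets higher in DEG than in RES, in order of p. For most genes, NQO1 and FTL among them, the RES libraries lie below the control and DEG lies at or near it.

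The control again places the difference, here on the RES side. RES was lower than the negative control in 21 of the 34 members and higher in none, with a median of -0.31. DEG was lower in 4 and higher in none, with a median of 0.0045. Over all genes 6.21% were lower and 4.94% higher in RES, and 6.11% were lower and 3.52% higher in DEG. NQO1 stood at 94.1 and 98.6 CPM in the control, a difference of -0.95 for RES and -0.18 for DEG. TXNRD1 was at 216 and 210.4 CPM in the control (-0.39 for RES, FDR 4.91e-24, and 0.087 for DEG, FDR 0.164). SLC7A11 was at 37.5 and 38.6 CPM there (-0.56 for RES and 0.081 for DEG).

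Iron genes beyond ferritin differed too. TFRC, the transferrin receptor that imports iron, stood at 163, 154 and 162 CPM in RES, 232 and 242 in DEG and 213 and 222 in the control, so it was lowest in RES (0.57 for DEG against RES, FDR 2.94e-52). Thus the importer and both ferritin chains were higher together in DEG than in RES. NCOA4, which delivers ferritin to the lysosome, was lower in DEG (-0.25), as was SLC39A14, a zinc and iron importer, at 475, 479 and 469.6 CPM in RES and 366 and 359.7 in DEG (-0.39, FDR 3.82e-30). The sensors IREB2 (-0.061) and ACO1 (0.038) did not pass. Among 17 iron genes tested, 5 were higher and 3 lower. Of 11 tested metallothionein and zinc genes, the only call was SLC39A14, and MT2A, which binds zinc and copper, was at 0.058 (FDR 0.286).

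The aryl hydrocarbon receptor is a sensor of planar aromatic ligands. Of 9 tested genes of its list, 5 were higher in DEG and 1 was lower. CYP1B1, a target monooxygenase, was at 38.7, 39.8 and 36.9 CPM in RES and 45.2 and 45.6 in DEG (0.24, FDR 1.47e-05) beside 51.0 and 52.8 in the control, and the repressor AHRR (0.21) and the partner ARNT (0.20) were higher as well. The receptor AHR was lower (-0.22, FDR 0.00225, or 0.0520 without DEG replicate 1), and CYP1A1, at 0.785, 1.21 and 0.942 CPM in RES and 0.594 and 0.890 in DEG, did not pass (FDR 0.474). Cytosolic heat shock genes showed 9 higher and none lower of 25. The inducible HSP70 genes HSPA1A (67.1, 67.6 and 72.8 CPM in RES and 91.4 and 89.7 in DEG, 0.39) and HSPA1B (0.35) are near-identical copies whose reads can be split between them. HSP90AA1 (0.16) and its cochaperones FKBP4 (0.25) and STIP1 (0.19) were higher too. Against the control, RES was lower in 7 of the 25 and higher in 1, and DEG was lower in none. Over all genes 6.21% were lower in RES and 6.11% in DEG. In the control HSPA1A stood at 90.8 and 91.3 CPM.

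Mitotic genes were higher in DEG. Of 38 tested G2 and mitosis genes, 21 were higher, none was lower and 17 did not pass, with a median of 0.11, and 12 of the 21 belonged to the stricter core. CDK1, the kinase that drives entry into mitosis, was at 146, 141 and 137 CPM in RES and 169.8 and 171 in DEG (0.27, FDR 4.51e-11), and its cyclin CCNA2 at 129, 125 and 127 and 151 and 153 (0.26). AURKB, the kinase of the chromosomal passenger complex (0.28), NUSAP1, a spindle protein (0.24), and MKI67, the proliferation marker Ki-67 (0.27), were higher by similar amounts. CCNB1 (-0.068, FDR 0.240), PLK1 (0.058) and AURKA (-0.013) did not pass. Against the control DEG was higher in 10 of the 38 and lower in 2 (median 0.081), and RES was higher in none and lower in 8 (median -0.051). Over all genes 3.52% were higher and 6.11% lower in DEG, and 4.94% higher and 6.21% lower in RES. In the control CDK1 stood at 145 and 156 CPM, with 0.18 for DEG (FDR 5.01e-04) and -0.091 for RES (FDR 0.108). The cell cycle element TTTGAA was found in 21 of 31 list members with a promoter (67.7%) and in 9.81% of the tested genes with one. Of the 17 called members with a promoter, 12 held it, so uncalled members held it often as well.

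Earlier cell cycle genes were split. Of 40 replication and S phase genes, 8 were higher and 6 lower (9 called without DEG replicate 1). RRM2, which makes deoxynucleotides (0.20), the licensing factor CDT1 (0.19) and the polymerase subunit POLE2 (0.37) were higher, but the helicase subunits MCM3 (-0.16) and MCM5 (-0.17) were lower. CCND1, cyclin D1, which carries growth signals into the cycle, was lower in DEG, at 164, 167 and 165 CPM in RES and 132 and 136 in DEG (-0.30, FDR 1.38e-15), and the inhibitor CDKN1A was higher (0.14).

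Serum starvation promotes cell death. Across 37 tested BCL2 family, caspase and death receptor genes the log2 fold changes ran from -0.49 to 0.28, and 4 were higher and 9 lower (6 called without DEG replicate 1 and 7 without DEG replicate 2). The survival genes BCL2L1, at 88.5, 94.0 and 92.0 CPM in RES and 78.5 and 78.0 in DEG (-0.22), and MCL1 (-0.12) were lower, as was the death-promoting PMAIP1 (-0.19). BCL2 (0.12, SE 0.123, FDR 0.552), BAX (-0.024, FDR 0.735), BAD (-0.071), BCL2L11 (-0.018) and the caspase CASP9 (-0.15) did not pass. TNFSF10, the death ligand TRAIL, which is outside that list and itself interferon-inducible, had a large fall at low level, from 3.95, 4.09 and 3.90 CPM in RES to 1.71 and 1.45 in DEG (-1.33, FDR 5.12e-10), and stood at 2.63 and 3.17 in the control.

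Cytosolic ribosomal protein genes all leaned to DEG. Of 77 tested, 45 were higher and none was lower, and the log2 fold changes ran from 0.0047 to 0.20 with a median of 0.11. RPL4, of the large subunit, was at 736, 727 and 729.5 CPM in RES and 825 and 829.7 in DEG (0.18, FDR 1.50e-06), and RPS2, of the small subunit, at 754, 766 and 767 and 869 and 870.0 (0.19). The calls were fragile in number: 15 of the 45 belonged to the stricter core, and leaving out a library left 17 to 40, with 28 without DEG replicate 1 and 17 without DEG replicate 2. Many of these genes have processed pseudogenes that can share their reads. Genes that build ribosomes in the nucleolus showed 7 higher and 1 lower of 38 (3 to 5 called with any of the 5 libraries left out), including GNL3 (0.18) and NOLC1 (0.16), nucleolar assembly factors.

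Bone matrix genes did not move in 1 direction. Of 30 tested collagen chains, 5 were higher in DEG and 10 lower. COL1A1, the main bone collagen, was at 2637, 2742 and 2741 CPM in RES and 2506 and 2463 in DEG (-0.12, FDR 6.89e-04), and COL1A2 differed by -0.11, the first call being lost without DEG replicate 2 (FDR 0.0545) and the second without DEG replicate 1 (FDR 0.112). COL7A1 of anchoring fibrils (-0.28) and the fibrillar COL27A1 (-0.37) were lower, while COL6A1 (3153, 3255 and 3260 CPM in RES and 3777 and 3797 in DEG, 0.23) and COL6A2 (0.16) of the microfibrils around cells were higher. COL6A1 stood at 3893 and 3868 CPM in the control, so RES was the lower group (-0.27).

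Enzymes that modify collagen leaned to DEG, with 11 of 23 higher and 4 lower and a median of 0.11 (9 called without DEG replicate 1). The prolyl hydroxylase subunits P4HA1 (139, 138 and 136 CPM in RES and 176 and 178 in DEG, 0.36, FDR 4.31e-23) and P4HB (0.23), the collagen chaperones FKBP10 (0.20) and SERPINH1 (0.14) and the crosslinking oxidase LOX (0.17) were higher. LOXL1, a relative of LOX, was lower (-0.20). Among matrix proteases and their inhibitors 7 of 25 were lower and none was higher (4 called without DEG replicate 1 and 3 without DEG replicate 2). TIMP3, an inhibitor bound to matrix, stood at 82.9, 86.3 and 85.7 CPM in RES and 54.0 and 54.8 in DEG (-0.64, SE 0.0400, FDR 1.40e-47) beside 81.8 and 82.9 in the control. TIMP2 (-0.18) and the membrane protease MMP14 (-0.13) were lower by little, and MMP1 (-0.20), MMP2 (-0.00012) and MMP3 (-0.23) did not pass.

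Osteoblast identity genes did not move as a block. Of 22 tested, 3 were higher and 6 lower (5 called without DEG replicate 1). CDH11, the osteoblast cadherin, was at 40.7, 40.3 and 39.7 CPM in RES and 52.8 and 50.1 in DEG (0.35, FDR 8.03e-12), with 55.8 and 52.7 in the control. TWIST1, which holds back differentiation, was higher (0.24), and the vitamin D receptor VDR was lower (-0.26). RUNX2, the master factor of the lineage, was at 45.6, 46.9 and 44.3 CPM in RES and 47.6 and 48.5 in DEG and did not pass (0.075, SE 0.0510, FDR 0.347), nor did BGLAP, which encodes osteocalcin (0.44, FDR 0.353), or SPP1, which encodes osteopontin (-0.51, FDR 0.119, or 0.0357 without RES replicate 3). ALPL, alkaline phosphatase, passed only narrowly (-0.36, FDR 0.0364), and it was not called by the quasi-likelihood test, by DESeq2, with no filter on low counts or without RES replicate 2, RES replicate 3 or DEG replicate 1 (FDR up to 0.556).

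Growth and morphogen signalling leaned to RES. Of 35 tested Wnt genes 13 were lower in DEG and 1 was higher (7 called without DEG replicate 1). DKK1, a secreted Wnt inhibitor, stood at 5.52, 5.61 and 5.09 CPM in RES and 2.58 and 2.62 in DEG (-1.05, FDR 7.71e-13), and the receptors FZD4 (47.7, 47.5 and 47.2 CPM in RES and 29.6 and 31.6 in DEG, -0.63) and FZD1 (-0.45) were lower with it. Thus an inhibitor and receptors of the same pathway fell together. Of 33 growth factor genes 11 were lower (7 without DEG replicate 2) and none was higher, led by FGF1 (19.4, 19.1 and 18.6 CPM in RES and 11.6 and 12.0 in DEG, -0.69) and FGF2 (-0.29), with VEGFA (-0.17) and VEGFC (-0.23), which act on vessels, and the receptor PDGFRA (-0.46). TGF-beta and BMP genes showed 5 higher and 11 lower of 35 (10 called without DEG replicate 1 and 9 without DEG replicate 2). The receptors TGFBR2 (-0.27) and TGFBR3 (-0.44) and the inhibitor SMAD6 (-0.44) were lower, while INHBA, an activin chain (495, 491 and 492 CPM in RES and 585 and 581 in DEG, 0.24), and LTBP4, which stores latent TGF-beta (0.25), were higher. TGFB1 itself differed by -0.091 (FDR 0.0474), a call lost in 6 alternatives, among them leaving out RES replicate 2, RES replicate 3 or either DEG library (FDR up to 0.267).

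Immediate early genes were split around a single large rise. EGR1 (ENSG00000120738.7, hg38 chromosome 5, 138465479 to 138469303), a transcription factor induced within minutes by growth signals, stood at 81.1, 84.7 and 80.0 CPM in RES, 133 and 124 in DEG and 96.8 and 94.8 in the control (0.65 for DEG against RES, SE 0.0379, FDR 1.30e-53). DEG was above the control (0.42) and RES below it (-0.23). FOS was higher in DEG at a lower level (0.40, FDR 2.13e-04). In contrast, 13 of 31 members were lower, among them KLF2 (55.5, 58.9 and 60.1 CPM in RES and 41.6 and 39.0 in DEG, -0.53) and KLF4 (-0.37), factors that respond to flow and growth arrest, and the MAPK phosphatases DUSP1 (-0.27) and DUSP4 (-0.27). Actin and YAP targets gave 8 lower and 2 higher of 26 (6 called without RES replicate 3, 5 without DEG replicate 1 and 6 without DEG replicate 2), with TPM1, a tropomyosin (-0.32), and CALD1, caldesmon (-0.24), lower. The glucocorticoid receptor NR3C1 (-0.27) and its target SGK1 (-0.48, FDR 1.03e-23) were lower, but another target, the clock gene PER1, was higher (0.35, FDR 4.52e-18).

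Among metabolic genes, cholesterol synthesis and uptake leaned to DEG, with 11 of 26 higher and 2 lower. INSIG1, the sterol sensor that retains SREBP, stood at 684, 689 and 672 CPM in RES and 861 and 854 in DEG (0.33, FDR 1.42e-23). The synthesis enzymes IDI1 (0.22) and MSMO1 (0.22) were higher, and LSS, of the same pathway, was lower (-0.18). Against the control DEG was higher in 16 of the 26 and lower in none, and RES was higher in 5 and lower in 3, beside 3.52% of all genes higher in DEG and 4.94% higher and 6.21% lower in RES. APOE, which carries lipid out of cells, was lower in DEG (36.0, 35.8 and 36.3 CPM in RES and 28.4 and 23.5 in DEG, -0.47).

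Glycolysis and hypoxia targets gave 16 higher and 7 lower of 41. CA9, a carbonic anhydrase used as a hypoxia marker, rose most, from 1.84, 1.72 and 1.68 CPM in RES to 3.67 and 3.18 in DEG with 1.63 and 2.09 in the control (0.97, FDR 8.42e-07), and it lies opposite ARHGEF39 on the other strand. ALDOA (0.19), ALDOC (0.37), HK2 (0.24) and PDK1 (0.32), of sugar use, were higher, whereas LDHA (-0.12), PKM (-0.11), ADM, a vessel peptide (-0.39), and HIF1A itself (-0.10) were lower. Without DEG replicate 1 the calls of LDHA (FDR 0.109), PKM (FDR 0.104) and HIF1A (FDR 0.220) were lost, the last also without RES replicate 2. The hypoxia core letters ACGTG were found in 15 of 36 members with a promoter (41.7%) and in 26.2% of the tested genes with one. Of the 21 called members with a promoter, 11 held them. Amino acid response genes were split, 6 higher and 10 lower of 33. The proline synthesis enzymes PYCR1 (69.2, 69.9 and 71.7 CPM in RES and 102 and 106 in DEG, 0.56) and ALDH18A1 (0.41) were higher, proline being abundant in collagen. PSAT1 of serine synthesis (-0.44) was lower, as was WARS1, the tryptophan tRNA ligase, which interferon also induces (100.2, 102 and 106 CPM in RES and 74.1 and 75.8 in DEG, -0.46, FDR 1.76e-25).

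Mitochondrially encoded genes were lower in DEG, 8 of 13 (5 without DEG replicate 2) and none higher, with a median of -0.13. MT-CYB, of complex III, stood at 2274, 2272 and 2197 CPM in RES and 1811 and 1774 in DEG (-0.33, FDR 9.26e-19), and MT-CO2, of complex IV, at 4005, 4024 and 3873 and 3473 and 3430 (-0.20). MT-ND1 (0.073, FDR 0.194) and MT-ND2 (0.028) did not pass. Nuclear-encoded subunits of the same chain showed 2 higher and 3 lower of 56 (1 called without DEG replicate 1 and 3 without DEG replicate 2), a share of 8.93%, below the 21.2% of all genes. DEG was also lower than the control in 9 of the 13 mitochondrial genes, beside 6.11% of all genes. RES was lower in none, beside 6.21% of all genes, a share at which few of 13 would be called.

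The largest differences sat on weakly expressed genes, and most were falls. Of the 148 genes lower by at least 1 on the log2 scale, 50 reached 1 CPM in either group, and of the 28 higher ones 3 did. Low-level genes as a whole were lower in DEG than in RES. In the quintile of genes with the lowest mean CPM the median was -0.13, with 31 higher and 119 lower. In the top quintile it was 0.023, with 765 higher and 470 lower. The bottom quintile was at -0.13 without RES replicate 2, the library with the most genes detected. Against the control its median was -0.054 in DEG (16 higher, 39 lower) and 0.089 in RES (44 higher, 20 lower). Marker lists of other cell types did not all move the same way. Endothelial markers had a summed CPM of 94.6 and 94.8 in DEG and 115 to 124 in RES, with 4 of 8 tested lower and the defining CDH5 and EMCN under 0.1 CPM. Epithelial markers summed to 371 and 376 in DEG and 451 to 463 in RES (3 of 6 lower, with KRT5, ESRP1 and GRHL2 under 0.1 CPM). Macrophage markers summed to 3.05 and 3.08 in DEG and 3.98 to 4.40 in RES, with PTPRC, C1QA, C1QB, AIF1, CD163 and TYROBP under 0.1 CPM and none of 4 called. Chondrocyte markers summed to 37.1 and 39.3 in DEG and 42.9 to 46.6 in RES (3 of 7 lower, with COL9A1 and CNMD under 0.1 CPM). Adipocyte markers lay the other way, at 12.4 and 12.8 in DEG and 10.7 to 12.0 in RES, with ADIPOQ, FABP4, LEP, CIDEC, LPL and PCK1 under 0.1 CPM and none of 4 called. Muscle markers summed to 17.5 and 18.4 in DEG and 19.0 to 20.1 in RES (1 of 6 higher and 1 lower, with MYOG, TNNT2, MYL1 and CKM under 0.1 CPM). KRT8 (194 CPM in DEG) and KRT18 (172) held most of the epithelial sum, and EGFL7 (45.4) and TEK (36.1) most of the endothelial sum. In the control the sums were 96.7 in both libraries for endothelial, 404 and 411 for epithelial and 3.52 and 4.31 for macrophage markers. They were 33.6 and 36.5 for chondrocyte, 10.5 and 11.7 for adipocyte and 19.7 and 21.1 for muscle markers. The part of other cells or of free transcripts in these small values was not tested.

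By the naming rule, the steepest falls among genes of at least 1 CPM were DOCK2, MYOM3, DIO2, PSMG3-AS1, SLCO4C1, JPH2, TNFSF10 and RASGRP3. DOCK2, a RAC activator of blood cells, stood at 2.74, 2.66 and 2.78 CPM in RES and 0.956 and 0.992 in DEG (-1.48, FDR 5.67e-08), beside 0.852 and 1.96 in the control. PSMG3-AS1, an antisense RNA, stood at 4.58, 4.63 and 4.71 and 1.86 and 1.63 CPM (-1.41, FDR 7.29e-18), and without a stated strand its reads cannot be told from those of PSMG3. DIO2, which activates thyroid hormone (-1.43), SLCO4C1, an organic anion transporter (-1.35), JPH2, a junction protein of muscle (-1.35), MYOM3, a sarcomere protein (-1.44), and RASGRP3, a RAS activator (-1.33), completed the group. SLCO4C1 was at 0.542 and 1.23 CPM in the control, close to the 0.982 and 1.04 of DEG and under the 2.80, 2.68 and 2.27 of RES.

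Among genes of at least 10 CPM the falls named by the rule included LRRC17, PTGES, RSAD2, SCN3A, IFIT2, PRUNE2 and CMPK2. LRRC17, a secreted leucine-rich protein of osteoblasts, stood at 23.6, 22.8 and 22.6 CPM in RES, 10.9 and 9.31 in DEG and 14.5 and 14.8 in the control (-1.19, SE 0.0738, FDR 9.49e-55). The sodium channel SCN3A stood at 11.5, 12.1 and 12.6 CPM in RES and 5.86 and 5.78 in DEG (-1.05). PRUNE2 went from 27.2, 26.3 and 25.7 CPM in RES to 13.2 and 13.8 in DEG (-0.97) with 16.0 and 16.1 in the control. For LRRC17, SCN3A and PRUNE2 alike, RES was above the control and DEG below it.

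The other rises named by the rule follow. MPDZ, a scaffold of cell junctions, stood at 50.0, 47.3 and 52.7 CPM in RES, 77.0 and 75.8 in DEG and 91.0 and 92.9 in the control (0.61, FDR 3.30e-36), so it was lowest in RES, as NQO1 was. ICAM5, an adhesion molecule, stood at 12.4, 9.30 and 10.8 and 17.7 and 16.7 CPM (0.67), and MCEE, an epimerase of propionate metabolism, at 12.1, 12.2 and 12.1 and 17.8 and 18.7 (0.59). OSGIN1, an NRF2 target that overlaps MLYCD, differed by 0.61 and TLCD3B, a sphingolipid enzyme, by 0.67. ALMS1-IT1, a transcript inside ALMS1 (0.92), and HMGN2P3, a pseudogene (0.78), may share reads with the genes around or like them.

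Other lists follow by their counts. Of 36 proteasome genes 2 were higher and 2 lower (11.1% called, but 0 of them without DEG replicate 1 and 2 without DEG replicate 2). Of 32 HOX genes, which mark body position, 2 were lower (6.25%). Without RES replicate 2 there was 1 lower, and without DEG replicate 1 there was none lower and 1 higher. Sirtuins, NAD and PGC-1 genes, often studied with resveratrol, gave 1 higher and 1 lower of 18 (1 called with DEG replicate 1 or DEG replicate 2 left out), and SIRT1 was at 44.3, 45.9 and 46.2 CPM in RES and 45.1 and 44.2 in DEG (-0.024, SE 0.0498, FDR 0.820). Estrogen receptor genes gave 4 lower of 9, all absent from the stricter core (1 called without DEG replicate 1 and 2 without DEG replicate 2), among them ESR2, the beta receptor, at 1.37, 1.56 and 1.50 CPM in RES and 0.698 and 0.916 in DEG (-0.87, FDR 0.00799, or 0.190 without DEG replicate 1). Endoplasmic reticulum folding genes gave 7 higher and 1 lower of 30 (4 called with DEG replicate 1 or DEG replicate 2 left out), and lysosome and autophagy genes 7 higher and 8 lower of 41 (8 called without DEG replicate 1), with the protease CTSS lower (-0.59) and the autophagy receptor SQSTM1, an NRF2 target, higher (0.20).

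DEG stood close to POG. Between them 179 genes were called, 1.05% of those tested, with the same test and DEG libraries. IFIT2 was at 72.0, 65.6 and 69.1 CPM in POG, IL6 at 597, 583 and 606, NQO1 at 86.1, 86.6 and 87.2 and TFRC at 240.2, 239 and 244, each nearer to the DEG level than to the RES level given above. For IFIT2 the DEG against POG difference was 0.16 (FDR 0.0360), for IL6 0.070 (FDR 0.436), for NQO1 -0.025 (FDR 0.910) and for TFRC -0.025 (FDR 0.898). Of the 41 interferon-stimulated genes, however, 6 were lower and 2 higher in DEG than in POG, with a median of -0.068. Over all genes 0.497% were lower and 0.55% higher. Of 13 mitochondrially encoded genes 3 were lower and none higher, and of 35 TGF-beta and BMP genes 5 were higher and none lower. CA9 differed between them, at 2.02, 1.95 and 2.30 CPM in POG and 3.67 and 3.18 in DEG (0.71, FDR 0.00698).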

How the data were processed

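Messenger RNA of hFOB 1.19 osteoblasts was sequenced as polyA-selected libraries. The values are the whole-number counts of reads on each gene that the authors deposited, in 1 table without normalization. Per their methods, reads were examined with FastQC, aligned to hg38 and counted on Ensembl genes with featureCounts. The aligner is given as STAR in their methods, which also list BWA MEM. Versions, how multi-mapped reads were handled and whether strand was used are not given in the sources used here, so antisense partners, pseudogenes and near-identical copies carry uncertain counts.

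From the deposited counts, genes were kept by filterByExpr by group (17092 of 43836), scaled by TMM and tested with the exact test of edgeR 4.0.16 in R 4.3.3, the test the study names, with dispersions from all 12 libraries and Benjamini-Hochberg adjustment over all genes tested. The biological coefficient of variation common to all genes was 3.21%. The standard errors printed came from edgeR's quasi-likelihood fit. Columns were matched to samples by title, replicate numbers followed accession order, and every column belonged to a labelled sample. Symbols matched 43214 identifiers. Promoters came from RefSeq (GRCh38.p14) and coordinates from an hg38 annotation (GENCODE). DEG libraries had fewer reads than RES libraries, and values of weakly expressed genes rest on few reads. On simulated counts for 17092 genes, the DEG against RES test recovered 85.0% of 100 genes changed by 0.5 on the log2 scale. It recovered 98.0% of 100 changed by 1. It also called 26 unchanged genes beside 183 changed ones, a larger false share than the FDR limit used here aims at. All changed genes were drawn from those with a mean of at least 1 CPM, so recovery below that level was not simulated. Changes under 0.5 were not simulated, although 57.2% of the genes called in the data differed by less than 0.25. The simulation therefore does not show how many such small differences the test finds.

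The members and lists were chosen with earlier results of these data known, so lists are given as counts and medians with no set test. Named genes were called genes with no overlap between DEG and RES libraries that the quasi-likelihood test, DESeq2 1.42.0 and each fit with a library left out also called: the 8 largest rises and falls at a mean of at least 1 CPM and at 10 CPM, and up to 4 per list by p. Results on a few genes and 1 list are not reported here. Other list members are named with their value and whether they passed. Alternatives were the quasi-likelihood test, DESeq2, DESeq2 size factors or plain totals in the exact test, no filter, dispersions from DEG and RES alone, a minimum mean of 1 CPM, an FDR of 0.01, a log2 limit of 1 and leaving out each library.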

Additional observations from a re-analysis of the deposited data

How the results depend on the processing

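Of the 3616 calls, leaving out a library left 2092 to 3063 (966 to 1490 higher and 1126 to 1599 lower). The lowest counts were without DEG replicate 1 (2092) and without DEG replicate 2 (2232), where a single DEG library is assumed to vary like the other groups. At an FDR of 0.01, 2404 genes were called, 1144 of them higher, and with a log2 limit of 1, 176 were called, 28 higher and 148 lower. The other alternatives gave 3104 to 4547 calls, with direction shares near the 48.8% higher of the main test (44.6% higher with plain library totals, the furthest below it). Interferon-stimulated genes gave 38 or 39 lower members under every alternative test and library left out, NRF2 targets 15 to 21 higher, cytokines and chemokines 18 to 21 lower and mitotic genes 14 to 24 higher. Cytosolic ribosomal proteins ranged from 17 to 65 higher and mitochondrial genes from 5 to 10 lower, and the cause was not tested. Of 257 genes followed, 218 were called and 204 of them stayed called under all 12 of those settings that gave them a value. The other 14 were lost under some of them, as stated with each gene, and no called gene changed direction. The 6 uncalled genes that passed under some were HLA-B, HLA-C, IFNB1, MT-ND1, MT2A and SPP1. Of the uncalled genes, AURKA, GCLC, IFNAR2, MMP1, MMP2, PTGS1 and TNFSF11 changed sign under some alternative without passing. No paired analysis was possible because the labels number no replicates that DEG and RES share.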
